A study of Mus musculus with 6 samples.

Results

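The genes described here build and feed the DNA replication fork: the clamp and its loader, the replicative polymerases, the enzymes of the lagging strand, the activators of the helicase, the origin recognition complex, the enzymes that supply deoxynucleotides, and factors of chromatin assembly and topology. They form a list of 45 gene symbols, chosen by name, from which the MCM helicase and the licensing factors are left out. Of the 45 genes, 39 had a probe assigned to that symbol alone, and 35 of these were tested, out of 11893 tested genes in all. The list was measured in mouse embryonic fibroblasts, the primary cells that grow out of a dissociated embryo, on 6 one-colour CodeLink arrays. Arrays C4, C3 and B1 held Ing1-deficient cells, in which a gene trap cassette was inserted in the Ing1 locus, and arrays H2, H3 and I2 held wild-type littermate cells. All were early-passage cultures, each from 1 embryo, with 3 embryos per genotype. C4 and C3, and H2 and H3, share a leading letter that the labels do not explain, and no letter holds both genotypes, so an origin shared within a letter and the genotype cannot be told apart; the labels used here name neither strain nor embryonic age. Ing1 encodes a nuclear protein that reads a methylation mark on histone H3, and the study asked which genes change when it is lost.

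At a replication origin, the origin recognition complex marks the site, the kinase Cdc7 with its partner Dbf4 and the proteins Cdc45 and GINS turn the loaded helicase on, and the polymerases then copy both strands. The leading strand is made continuously, while the lagging strand is made in fragments that each need a primer, a clamp, a flap nuclease and a ligase. Most of these genes are transcribed more strongly in cells that enter S phase, under factors of the E2F family, and fibroblasts in culture express them as long as they divide.

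The windows upstream of the annotated starts show how unevenly that E2F-type sequence was spread over the list. RefSeq promoters of GRCm38.p6, from 250 bases before to 50 after each start, were found for 39 of the 45 genes. An E2F-type motif (TTTGGCGC, TTTGCCGC, TTTCGCGC or TTTCCCGC, on either strand) lay in 10 of these 39 promoters, or 25.6%, against 704 of 27025 genes with a promoter, or 2.6%. Among the tested members with a promoter it lay in 7 of 31, or 22.6%: Gins3, Lig1, Orc1, Pold1, Pold3, Pole2 and Uhrf1. The 27025 genes include genes not tested on these arrays, and the share among the tested genes alone was not computed. The CCAAT box, the site of the factor NF-Y, lay on either strand in 21 of the 39, or 53.8%, against 41.1% of the 27025 genes. Among the tested members with a promoter it lay in 15 of 31, or 48.4%. Shown here are the 150 bases before the start of 4 members, which differ in the motifs they hold. Rrm2 and Orc6 hold a CCAAT box alone and passed the expression test, with log2 differences of 0.87 and 0.68. Orc1 and Gins3 hold both motifs and did not pass, with differences of 0.12 and 0.89 (limma adjusted p of 0.706 and 0.0623). The difference of Gins3 was thus the largest of the 4, and a link between motif and response was not tested. The 4 windows lie, in GRCm38.p6 and all on the plus strand, at chr12:24708104-24708253 (Rrm2), chr8:85299482-85299631 (Orc6), chr4:108579304-108579453 (Orc1) and chr8:95633409-95633558 (Gins3). Capitals mark the E2F-type and CCAAT matches, written 5′ to 3′.
Rrm2: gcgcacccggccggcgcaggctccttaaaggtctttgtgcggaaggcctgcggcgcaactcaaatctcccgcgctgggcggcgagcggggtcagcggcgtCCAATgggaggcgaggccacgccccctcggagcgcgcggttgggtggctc
Orc6: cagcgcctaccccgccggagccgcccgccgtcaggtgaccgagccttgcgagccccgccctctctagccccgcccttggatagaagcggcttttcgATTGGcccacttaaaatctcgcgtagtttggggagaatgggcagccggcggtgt
Orc1: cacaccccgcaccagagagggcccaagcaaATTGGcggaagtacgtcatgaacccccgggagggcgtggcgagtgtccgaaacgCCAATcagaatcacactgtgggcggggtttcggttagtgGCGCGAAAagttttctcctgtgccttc
Gins3: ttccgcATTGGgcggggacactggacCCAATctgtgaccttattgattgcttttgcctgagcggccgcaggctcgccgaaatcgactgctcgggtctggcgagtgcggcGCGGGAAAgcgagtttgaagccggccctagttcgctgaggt
Fen1, with 2 annotated starts, holds neither motif in either window. A match is a run of letters and not a measured site, and the motifs do not overlap in the 4 windows shown.

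All intensities below are normalized so that the median transcript probe of an array is 1, and they are listed in the order C4, C3 and B1 for deficient cells and H2, H3 and I2 for wild-type cells. The targeted gene checked the labels. Ing1 read 1.38, 0.930 and 1.39 in deficient cells, against 11.7, 11.4 and 11.1 in wild-type cells, a log2 difference of -3.23 ± 0.19 (standard error of the limma fit, n = 3 arrays per genotype, as throughout) with an adjusted p of 0.000286. Between 55.5% and 59.0% of the transcript probes were flagged good in the deficient arrays and between 56.0% and 62.1% in the wild-type arrays. Fibroblast markers were present in every array, with 10 of 10 genes flagged good throughout and a summed level of 1018 to 1089 in deficient and 869 to 1102 in wild-type cells. Of these 10 genes, Thy1 rose, by a log2 difference of 0.89 ± 0.22 (adjusted p = 0.0492), and none fell. Of all tested genes, 6.02% rose and 1.61% fell. At an unadjusted p under 0.05 in limma, 4 of the 10 fibroblast markers stood higher, against 19.9% of all tested genes. The median of the fibroblast list was 0.26, against 0.07 over all tested genes. Macrophage and blood markers summed to 55.3, 171 and 89.7 in deficient cells, against 59.9, 38.1 and 25.8 in wild-type cells, with 7 of 12 genes good on all arrays and the common leukocyte gene Ptprc good on none. Of 9 tested genes of that list, C1qa and C1qb, which encode complement chains, and the receptor gene Mrc1 rose, against 6.02% of all tested genes. Their log2 differences were 2.00, 1.85 and 1.73 (adjusted p of 0.0393, 0.0308 and 0.0336). The list's median was 1.199, against 0.07 over all tested genes. Mrc1 was flagged good on only 4 arrays and entered the test through the deficient arrays. Its H2 and I2 values, 0.39 and 0.54, were raised to the floor of 0.57 before log2, so its size rested in part on the floor. Skeletal muscle markers summed to 58.2, 24.0 and 37.4 in deficient cells, against 30.6, 23.2 and 25.4 in wild-type cells, with 5 of 8 genes good on all arrays and Ckm good on none. Epithelial markers summed to 5.95 to 8.38 in deficient and 5.91 to 8.33 in wild-type cells (3 of 7 good on all arrays), and endothelial markers to 3.32 to 4.80 in deficient and 3.01 to 3.51 in wild-type cells (none of 6 good on all).

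Of the 35 tested members, 4 rose in Ing1-deficient cells and none fell. These were Fen1, the flap endonuclease that trims lagging-strand fragments; Pole, the catalytic subunit of the leading-strand polymerase epsilon; Orc6, the smallest subunit of the origin recognition complex; and Rrm2, the small subunit of ribonucleotide reductase. The 4 make up 11.4% of the tested members, whereas 6.02% of all tested genes rose; 1.61% of all tested genes fell. At an unadjusted p under 0.05 in the same limma fit, 14 members (40.0%) stood higher, against 19.9% of all tested genes, and 1, Orc4, stood lower, against 8.24%. Pole, among the 4 and the 14, and Gins3 and Dna2, among the 14, entered the test through the deficient arrays alone. The median log2 difference was 0.37 over the members and 0.07 over all tested genes, and 31 of 35 members (88.6%) had a difference above 0, against 57.3% of all tested genes. With a good flag asked on all 6 arrays, 4 of 28 members rose (14.3%), against 6.72% of all genes then tested. In cultures of mixed cells, a larger share of cycling cells and more RNA per cell cannot be told apart.

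**Figure D1:**
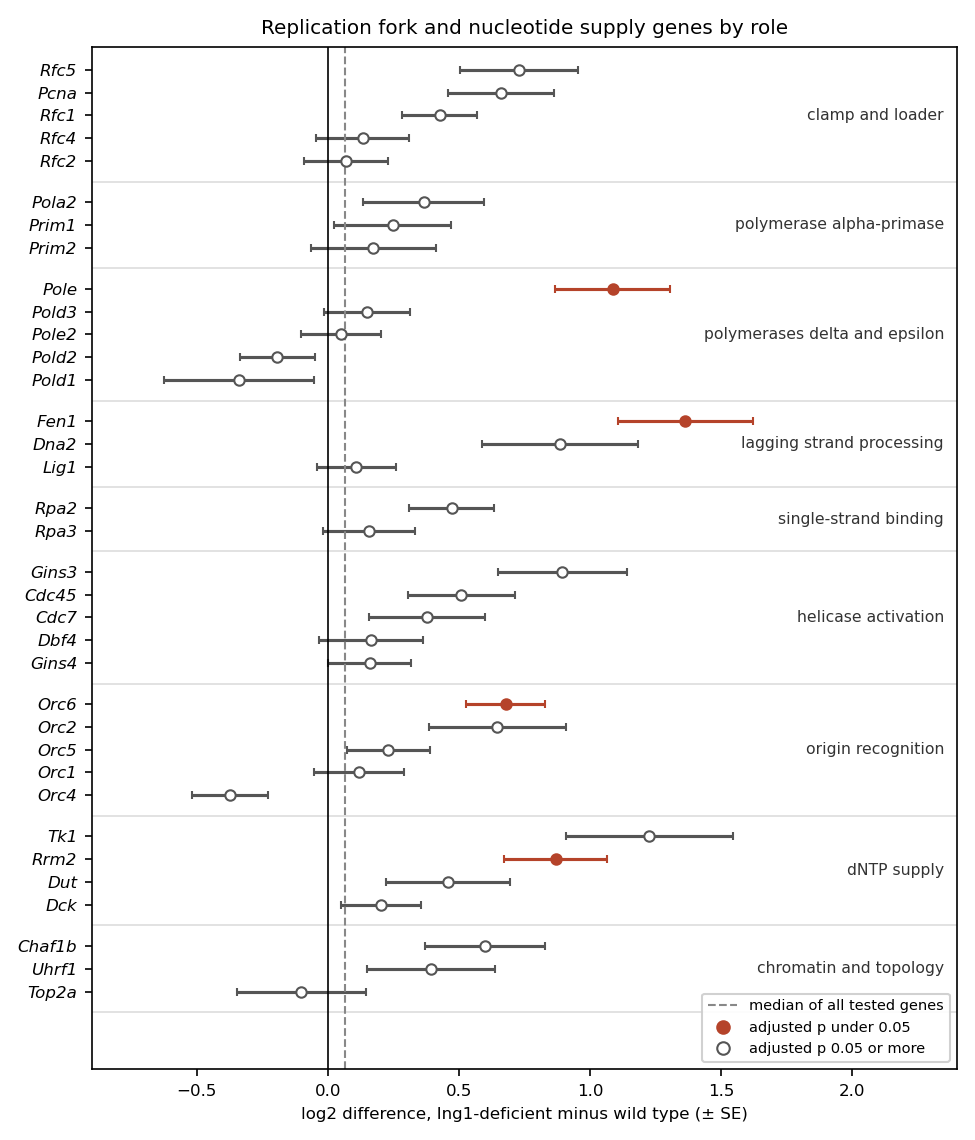
Log2 difference, Ing1-deficient minus wild type, with its standard error for each of the 35 tested members, grouped by role; filled points had an adjusted p under 0.05 and the dashed line is the median of all 11893 tested genes (0.07). The 4 filled points are Pole, Fen1, Orc6 and Rrm2, and only Orc4, Pold1, Pold2 and Top2a lie below 0.

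Within the deficient group, array C4 stood apart. It was the highest of the 6 arrays in 26 of 35 members (74.3%), against 33.3% of all tested genes, and C3 was the lowest deficient array in 26 members. In 15 members C4 was highest while the genotypes overlapped. The shares of all tested genes that match the counts for C3 and for overlap were not computed. Measured from each gene's mean over the 6 arrays, the members' median deviation was 0.35, -0.05 and 0.11 in C4, C3 and B1, against -0.22, -0.18 and -0.10 in H2, H3 and I2, on the log2 scale. Over all tested genes the same medians were 0.10, 0.02 and 0.02 in the deficient arrays, against 0.01, -0.08 and -0.02 in the wild-type arrays. C3, the deficient array nearest to the wild-type level, also had the highest sum of macrophage and blood markers, and C4 the highest sum of muscle markers; their part in the members' values was not tested.

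Without C4 no member passed the adjusted threshold, and 0.244% of all tested genes rose (29 genes). At an unadjusted p under 0.05, 11 members (31.4%) still stood higher without C4, against 16.0% of all tested genes. The members' median difference was then 0.16, against 0.05 over all tested genes. The difference was smaller in size, whatever its sign, without C4 in 27 of 35 members, and Rfc2 and Dbf4 changed sign. The matching shares of all tested genes were not computed. Leaving out any other single array altered the count of members that rose and the share of all tested genes that rose with it. The count was 1 (Pole) without C3, against 1.84% of all tested genes, and 7 (20.0%) without H3, against 10.6%. It was 0 without B1, H2 or I2, where 0.0252%, 0.118% and 0.0841% of all tested genes rose.

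**Figure D2:**
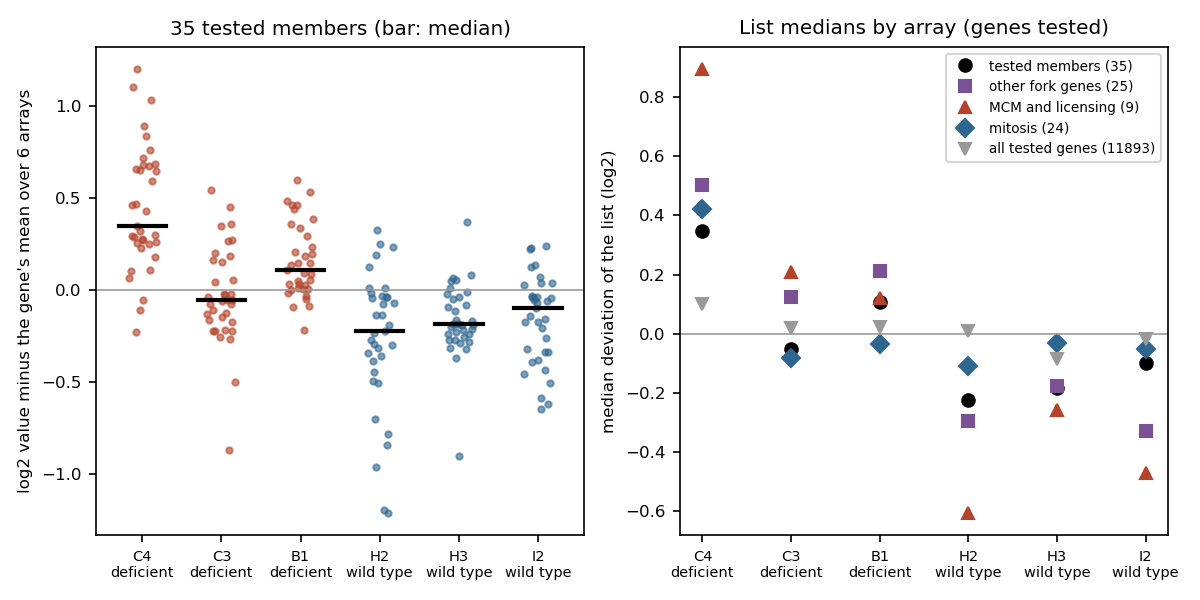
Left, the log2 value of each of the 35 tested members minus its mean over the 6 arrays, one point per member, with the median as a bar; right, the median of the same deviation for the members, 3 related lists and all tested genes in each array. C4 lies at a member median of 0.35 and C3 at -0.05, while the wild-type arrays lie between -0.22 and -0.10.

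A good flag was present on all 6 arrays in 27 of the 35 members; 5 others were good on every deficient array only (Pole, Pole2, Gins3, Orc1 and Dna2) and 3 on every wild-type array only. Every deficient array exceeded every wild-type array in 13 members (37.1%), against 23.7% of all tested genes: Cdc45, Chaf1b, Dna2, Fen1, Gins3, Orc6, Pcna, Pole, Rfc1, Rfc5, Rpa2, Rrm2 and Tk1. With C3 and B1 alone set against the wild-type arrays the count was 14 (40.0%), against 28.1% of all tested genes, and Orc2 was the gene added. The reverse order, with every deficient array below every wild-type array, held for Orc4 and Pold2 (5.71%), against 10.0% of all tested genes. The fitted difference was over 2-fold upward in 3 members, Fen1, Tk1 and Pole, and in 3.41% of all tested genes.

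Among the enzymes of the lagging strand, Fen1 alone passed, with the largest difference of the 35 members at the settings reported. Its intensity was 3.73, 2.66 and 2.51 in deficient cells, against 0.796, 1.54 and 1.19 in wild-type cells. The groups were separate, with C4 the highest array and H2 the lowest. The log2 difference was 1.36 ± 0.26 (adjusted p = 0.0290), and 1.19 over C3 and B1 alone (adjusted p = 0.0882). After normexp background correction the difference was 0.55 (adjusted p = 0.0462), below those of Tk1 (0.83), Rrm2 (0.68) and Pole (0.57). With a floor of 1.14 in place of 0.57, Fen1 differed by 1.19 (adjusted p = 0.0847), below Tk1 (1.23). With a floor of 0.01 its difference stayed at 1.36 but missed the threshold (adjusted p = 0.0547). Dna2, a nuclease and helicase that shortens long flaps, read 5.51, 2.36 and 2.65 in deficient cells, against 1.69, 2.03 and 1.59 in wild-type cells. C4 stood far above the other 5 arrays, and the difference of 0.89 ± 0.30 missed the threshold (adjusted p = 0.103); its H2 spot was not flagged good. Lig1, the ligase that seals the fragments, was nearly level, at 3.82, 3.14 and 3.22 in deficient cells and 3.19, 3.08 and 3.13 in wild-type cells. Its difference was 0.11 ± 0.15 (adjusted p = 0.696), with C3 inside the wild-type range. Consecutive steps of fragment maturation thus differed in size, from 1.36 for Fen1 to 0.11 for Lig1, although the difference between these genes was not itself tested.

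Among the 5 tested members for polymerases delta and epsilon, Pole alone passed the test. It read 5.94, 3.67 and 4.64 in deficient cells, against 1.78, 2.62 and 2.26 in wild-type cells. Its lowest deficient array, C3, lay above the highest wild-type array, H3, and the log2 difference was 1.09 ± 0.22 (adjusted p = 0.0313). Over C3 and B1 alone it was 0.91 (adjusted p = 0.0890). The H2 spot, the lowest of the 6, was not flagged good, so Pole entered the test through the deficient arrays; without H2 the difference was 0.94 (adjusted p = 0.105), and after normexp 0.57 (adjusted p = 0.0479). Pole2, the second subunit of polymerase epsilon, read 1.91, 1.71 and 1.81 in deficient cells, against 1.94, 1.58 and 1.73 in wild-type cells, with overlapping groups and a difference of 0.05 ± 0.15 (adjusted p = 0.868). A dimmer Pole2 probe gave 2.04, 1.25 and 1.34 in deficient cells, against 1.07, 1.15 and 1.12 in wild-type cells, a difference of 0.44 ± 0.20 (adjusted p = 0.207), so the probes of this gene differed in size. Pole3 and Pole4, epsilon subunits outside the member list, differed by 0.46 ± 0.15 and 0.54 ± 0.16 (adjusted p of 0.0984 and 0.0741).

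In polymerase delta, which copies the lagging strand, none of the 3 tested members passed. Pold1, its catalytic subunit, read 5.24, 2.26 and 4.15 in deficient cells, against 5.18, 3.99 and 4.83 in wild-type cells. C4 was the highest and C3 the lowest of all 6 arrays, and the difference was -0.34 ± 0.29 (adjusted p = 0.492). Pold2, the accessory subunit, read 11.7, 11.0 and 11.4 in deficient cells, against 13.9, 12.7 and 12.5 in wild-type cells. Here the 3 deficient arrays were close together and all below the wild-type arrays, with a difference of -0.19 ± 0.14 (adjusted p = 0.430). Pold3, a further subunit, had a difference of 0.15 ± 0.16 (adjusted p = 0.605). Pold4, a delta subunit outside the member list, differed by -0.39 ± 0.22 (adjusted p = 0.290).

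In the polymerase alpha-primase complex, which lays the primers, none of the 3 tested genes passed, with an unadjusted p above 0.05 in each. Pola2, the regulatory subunit, read 6.89, 3.77 and 4.72 in deficient cells, against 3.35, 4.35 and 3.92 in wild-type cells. C3 lay below H3 and I2, and the difference of 0.37 ± 0.23 (adjusted p = 0.348) was 0.13 without C4. Prim1, the catalytic primase, read 4.11, 2.41 and 2.64 in deficient cells, against 2.15, 2.86 and 2.55 in wild-type cells. C4 was the only deficient array outside the wild-type spread of Prim1, and the difference was 0.25 ± 0.22 (adjusted p = 0.525) with it and 0.01 without it. Prim2, the large primase subunit, had a difference of 0.17 ± 0.24 (adjusted p = 0.694). Pola1, the catalytic subunit of the complex, was flagged good on C4 alone, at 0.836, and was not tested.

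The clamp and its loader gave no call among 5 tested genes and a median difference of 0.43. At an unadjusted p under 0.05 in limma, 3 of the 5 stood higher, against 19.9% of all tested genes. Pcna, the ring that holds the polymerases on DNA, read 40.3, 24.5 and 31.7 in deficient cells, against 19.6, 22.1 and 18.3 in wild-type cells. The groups were separate, though C3 came close to H3, and the difference was 0.66 ± 0.20 (adjusted p = 0.0822). Rfc5, a small loader subunit, read 9.23, 5.98 and 7.39 in deficient cells, against 3.55, 5.68 and 4.43 in wild-type cells, with C3 just above H3 and a difference of 0.73 ± 0.22 (adjusted p = 0.0825). Rfc1, the large loader subunit, was tighter, at 13.2, 11.97 and 12.3 in deficient cells and 8.93, 9.37 and 9.56 in wild-type cells. Its groups were well apart in relation to their spread, but the difference was smaller, 0.43 ± 0.14 (adjusted p = 0.101). The other loader subunits were near level. Rfc4 differed by 0.13 ± 0.18 (adjusted p = 0.683). Rfc2 differed by 0.07 ± 0.16 at its brighter probe and by -0.07 ± 0.15 at its second probe (adjusted p of 0.826 and 0.810), so the sign of this gene was not settled.

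For the single-strand binding protein RPA, which coats unwound DNA, Rpa2 read 3.92, 3.23 and 2.95 in deficient cells, against 2.49, 2.28 and 2.46 in wild-type cells. The groups were separate, and the difference was 0.47 ± 0.16 (adjusted p = 0.107). Rpa3, the smallest subunit, read 25.03, 17.2 and 22.1 in deficient cells, against 19.6, 17.9 and 19.4 in wild-type cells. C3 was the lowest of all arrays for Rpa3, and the difference was 0.16 ± 0.18 (adjusted p = 0.615). Rpa1 was masked on 5 arrays and was not tested.

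Helicase activation showed no call among 5 tested genes, with a median difference of 0.38 (0.13 without C4). At an unadjusted p under 0.05 in limma, 2 of the 5 stood higher, against 19.9% of all tested genes. Gins3, a subunit of the GINS complex, read 1.35, 1.52 and 1.68 in deficient cells, against 0.405, 1.14 and 0.820 in wild-type cells. It was one of the members in which C4 was the lowest deficient array; the H2 spot was flagged as low signal and was set to the floor of 0.57. The difference was 0.89 ± 0.24 (adjusted p = 0.0623), and 0.97 without C4 (adjusted p = 0.121). Gins3 entered the test through the deficient arrays, and its size rested on the floor: it was 0.40 with the floor doubled, 1.06 with a floor near 0 and 0.29 after normexp. Cdc45, which joins GINS and the MCM ring in the active helicase, read 6.36, 3.75 and 4.66 in deficient cells, against 3.25, 3.32 and 3.57 in wild-type cells. Its groups were separate, with C3 close to I2, and the difference was 0.51 ± 0.20 (adjusted p = 0.154). Cdc7, the kinase that fires origins, differed by 0.38 ± 0.22 (adjusted p = 0.313). Its partner Dbf4 differed by 0.16 ± 0.20 (adjusted p = 0.645), and Gins4 by 0.16 ± 0.16 (adjusted p = 0.567). Gins2 was flagged as low signal on all 6 arrays and was not tested.

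The origin recognition complex held a member that rose, Orc6, and the member with the lowest difference, Orc4. Orc6 read 12.8, 12.9 and 15.0 in deficient cells, against 7.87, 8.95 and 8.57 in wild-type cells. Unlike Fen1, Pole and Rrm2, its highest array was B1, and the lowest deficient array lay far above the highest wild-type array. The difference was 0.68 ± 0.15 (adjusted p = 0.0367), and 0.72 over C3 and B1 alone (adjusted p = 0.0850). Orc2, a core subunit, read 1.37, 1.54 and 1.64 in deficient cells, against 0.985, 0.646 and 1.41 in wild-type cells. C4 fell just below I2, so the groups overlapped, and the difference was 0.65 ± 0.26 (adjusted p = 0.157). Orc4, another core subunit, ran the opposite way, at 3.33, 3.58 and 3.35 in deficient cells and 4.59, 4.12 and 4.60 in wild-type cells. Its groups were separate and each was tight, but the difference of -0.37 ± 0.14 missed the threshold (adjusted p = 0.142). Orc5 differed by 0.23 ± 0.16 (adjusted p = 0.393), and Orc1, the ATPase subunit of the complex, by 0.12 ± 0.17 (adjusted p = 0.706).

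**Figure D3:**
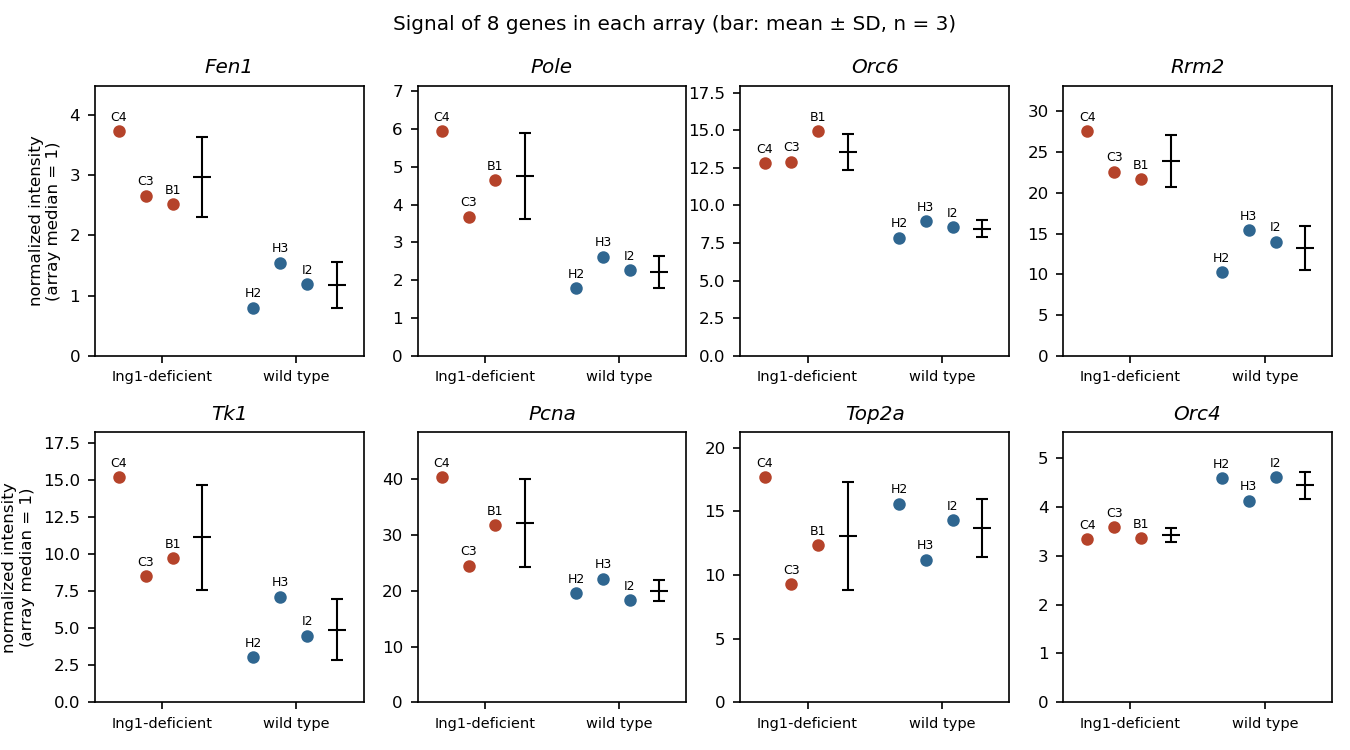
Normalized intensity (array median = 1) of 8 members in each array, with the mean ± SD of the 3 arrays of a genotype beside the points. The groups are separate in all panels but that of Top2a, C4 is the highest array in Fen1, Pole, Rrm2, Tk1, Pcna and Top2a, and Orc4 is lower in deficient cells.

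Nucleotide supply had the highest median difference among the role groups with 4 or more tested genes, 0.66 over 4 genes (0.49 without C4). The lagging-strand group, with 3 tested genes, had a higher median of 0.89 (0.51 without C4). Rrm2 read 27.6, 22.6 and 21.6 in deficient cells, against 10.2, 15.4 and 14.0 in wild-type cells. The lowest deficient array, B1, lay above the highest wild-type array, H3, and the difference was 0.87 ± 0.20 (adjusted p = 0.0372). It was 0.76 without C4 (adjusted p = 0.109). Tk1, the thymidine kinase of the salvage route, read 15.2, 8.49 and 9.73 in deficient cells, against 3.05, 7.12 and 4.51 in wild-type cells. C4 was highest and H2 lowest, and C3 lay not far above H3. The difference was 1.23 ± 0.32 and just missed the threshold (adjusted p = 0.0545). A second Tk1 probe read 15.7, 8.05 and 8.38 in deficient cells, against 2.62, 5.90 and 4.25 in wild-type cells, and its difference of 1.34 ± 0.34 passed (adjusted p = 0.0488). Both probes showed the same order of arrays at the extremes, so the call for Tk1 depended on which probe stood for the gene.

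The other tested genes of nucleotide supply were smaller in difference. Dut, which removes dUTP and so keeps uracil out of DNA, read 24.5, 12.7 and 16.9 in deficient cells, against 14.5, 11.9 and 11.8 in wild-type cells. C3 lay inside the wild-type range, and the difference was 0.46 ± 0.24 (adjusted p = 0.255). Dck, the deoxycytidine kinase, differed by 0.20 ± 0.15 (adjusted p = 0.438). Rrm1, the large subunit of ribonucleotide reductase, was flagged as low signal on all 6 arrays, so among the members the reductase was measured through Rrm2 alone.

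In chromatin assembly, Chaf1b, a subunit of the histone chaperone CAF-1, read 8.35, 4.59 and 4.97 in deficient cells, against 3.80, 4.03 and 3.57 in wild-type cells. The groups were separate, but C3 and B1 were nearer to the wild-type arrays than to C4, and the difference was 0.60 ± 0.23 (adjusted p = 0.139). Uhrf1, which brings the maintenance methyltransferase to newly copied DNA, read 14.4, 7.09 and 9.09 in deficient cells, against 7.30, 7.87 and 7.12 in wild-type cells. C3 was the lowest of all 6 arrays at this probe, and the difference of 0.40 ± 0.24 (adjusted p = 0.341) was 0.11 without C4. A second Uhrf1 probe differed by 0.46 ± 0.21 (adjusted p = 0.213). Top2a, the topoisomerase that untangles chromosomes late in the cycle, read 17.7, 9.27 and 12.4 in deficient cells, against 15.6, 11.2 and 14.3 in wild-type cells. C4 was the highest and C3 the lowest array, so that the difference was -0.10 ± 0.25 (adjusted p = 0.835); a second Top2a probe was flagged as low signal on all arrays.

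Of the members without a test, Pola1, Rpa1, Gins2 and Rrm1 had too few good spots. Orc3, Tyms and Chaf1a were represented on these arrays only by probes shared with another gene, and Rfc3, Gins1 and Rnaseh2a had no probe in the annotation used here. None of these 10 genes enters a count of the expression test.

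**Figure D4:**
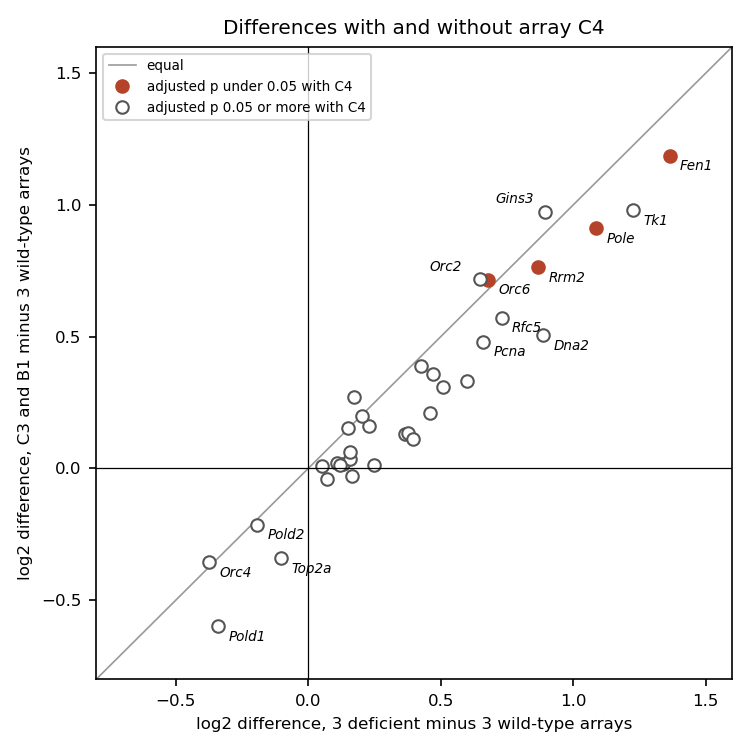
Log2 difference of each of the 35 tested members with all 6 arrays (horizontal) and with C4 left out (vertical); the line marks equal values and filled points passed the adjusted threshold with C4. Without C4, 29 members lie below the line, for Fen1 at 1.19 in place of 1.36, and 6 above it: Prim2, Pold3, Gins3, Orc2, Orc4 and Orc6. The matching shares of all tested genes were not computed.

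Genes that work beside the members were set against them as background lists. Of 25 tested other fork genes, 5 rose and none fell, against 6.02% and 1.61% of all tested genes. Their median difference was 0.48 (0.38 without C4). Tipin, which protects stalled forks together with Timeless, read 18.5, 15.3 and 18.4 in deficient cells, against 8.70, 10.8 and 9.78 in wild-type cells, with wide separation and a difference of 0.84 ± 0.16 (adjusted p = 0.0300). Timeless itself differed by 0.86 ± 0.21 (adjusted p = 0.0469). Pclaf, a small PCNA-binding protein, read 64.1, 41.9 and 50.4 in deficient cells, against 18.9, 32.3 and 21.9 in wild-type cells, a difference of 1.11 ± 0.24 (adjusted p = 0.0336). Its groups were separate, with C4 the highest array and H2 the lowest. Asf1b, a histone chaperone, rose by 1.56 ± 0.35 (adjusted p = 0.0370), and Slbp, which binds the ends of histone mRNAs, by 0.86 ± 0.19 (adjusted p = 0.0367).

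Of 9 tested MCM and licensing genes, which serve the helicase and the control of its loading, 5 rose and none fell. Of all tested genes, 6.02% rose and 1.61% fell. The median difference of the licensing list was 0.94 (0.70 without C4). Cdc6, the loader, read 2.98, 1.49 and 1.80 in deficient cells, against 0.557, 1.003 and 0.661 in wild-type cells, a difference of 1.47 ± 0.29 (adjusted p = 0.0310). The helicase subunits Mcm3, Mcm4, Mcm5 and Mcm7 rose by log2 differences of 1.09, 0.94, 1.27 and 1.10 (adjusted p of 0.0332, 0.0438, 0.0452 and 0.0470). A difference above 0 was found in 8 of the 9 genes, against 57.3% of all tested genes. Cdt1 differed by -0.35 ± 0.25 (adjusted p = 0.418). An E2F-type motif lay in the promoters of 6 of 7 genes of this list (85.7%), against 10 of 39 members (25.6%). Of the members that rose, Fen1, Orc6 and Rrm2 have a promoter entry and hold no such match in the same window. A link between motif and rise was not tested in either list. The difference between the lists was not tested.

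In the wider nucleotide pathways, 3 of 26 tested genes rose and 1 fell, against 6.02% and 1.61% of all tested genes. The list's median was 0.22 (0.10 without C4). Dhodh, an enzyme of new pyrimidine synthesis, read 3.02, 1.89 and 1.98 in deficient cells, against 0.815, 1.21 and 1.28 in wild-type cells, a difference of 1.05 ± 0.24 (adjusted p = 0.0390). Adsl, of purine synthesis, rose by 1.06 ± 0.27 (adjusted p = 0.0492), and Shmt1, which feeds the folate cycle, by 0.97 ± 0.24 (adjusted p = 0.0456). Ctps, which makes CTP from UTP, ran against them, at 28.0, 36.7 and 34.3 in deficient cells and 62.7, 47.5 and 58.2 in wild-type cells. It fell by 0.77 on the log2 scale (adjusted p = 0.0401), with separate groups.

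Genes of mitosis gave no call among 24 tested, and their median difference of 0.15 was -0.03 without C4. At an unadjusted p under 0.05 in limma, 3 stood higher and 1 lower, against 19.9% and 8.24% of all tested genes. The median deviation of the mitotic genes was 0.42 in C4, above the members' 0.35 in that array. It was -0.08 and -0.04 in C3 and B1, against -0.11, -0.03 and -0.05 in H2, H3 and I2. C4 thus stood high for fork and mitotic genes alike, whereas without C4 the medians were 0.16 for the members, 0.38 for the other fork genes, 0.10 for the nucleotide genes, 0.70 for the licensing genes and -0.03 for the mitotic genes. Without C4, no gene of these 4 lists passed the adjusted threshold in limma for a rise, against 0.244% of all tested genes. At an unadjusted p under 0.05 in that fit, 16.0% of all tested genes stood higher. The counts were 12 of 25 other fork genes, 6 of 26 nucleotide genes, 6 of 9 licensing genes and 1 of 24 mitotic genes.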

How the data were processed

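Mouse embryonic fibroblast RNA from 6 cultures was labelled with biotin, and each culture was hybridised alone to a CodeLink whole-genome array, per the labels. The authors read the spots in CodeLink Expression Analysis (version 4.1.0.29054), per the file headers. The deposited normalized intensity proved, on recomputation from the deposited spot columns, to be each spot's mean less its local background, scaled so that the unmasked transcript probes of an array have a median of 1. It is linear, and the quality flag was used beside it. Per the labels, the authors took log2 values and selected genes by a Student test with a ratio of more than 2 or less than 0.5; that selection is called the methods' t-test here. No source used here names a genome build.

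For the comparison, intensities under 0.57 were raised to 0.57 (the median over the arrays of percentile 1 among good spots) before log2 was taken. Masked spots (105 to 177 of 34967 transcript probes per array) were treated as missing, and the 1260 control spots were left out. The 19575 probes flagged good on all 3 arrays of at least 1 genotype were tested with limma 3.58.1 in R 4.3.3 (lmFit and eBayes, two-sided), with Benjamini-Hochberg adjustment over all of them and a threshold of 0.05. Where a gene had several tested probes, the one with the highest mean stood for it, which gave 11893 genes. Symbols came from the platform annotation, in which 21615 probes had 1 symbol. Of those, 21487 matched the RefSeq table of GRCm38.p6, used for names; promoter windows came from RefSeq's promoter table of the same build. The fit was tested on simulated data.

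The members and the gene lists were chosen with earlier results of these data known. Named were all members past the threshold, up to 2 more per role with the lowest p, members whose probes differed in sign, untested members, Ing1, and genes past the threshold in 3 related lists. Every other member, and each marker gene past the threshold, was added after its values were seen. Alternatives covered background correction, normalization, floor, flag filter, variance model, array weights, the leading letter of the array name as a block, leaving out single arrays, the test named in the labels and the mean over a gene's probes. The counts without C4 at an unadjusted p and of separate groups were chosen after seeing the data.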

Additional observations from a re-analysis of the deposited data

How the results depend on the processing

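With 3 arrays per genotype, the calls rested on small margins. The count of members that rose, 4 in the report, was 2 (Fen1 and Pole) after normexp background correction, quantile or cyclic loess normalization, 0 with a floor of 0.01, 1 (Rfc1) with a floor of 1.14 and 0 with no filter on flags. Of all genes tested in the same fit, 6.02% rose in the report, and 2.72%, 2.55% and 2.81% after normexp, quantile and loess. The share was 1.19% and 0.933% with the low and high floor and 0.0278% with no filter. The count was 14 (40.0%) with array weights, an estimation that stopped before it converged and gave I2 a weight of 13.03. It was 25 (71.4%) with the leading letter of the array name as a random block, whose estimated correlation was -0.89. Of all tested genes, 25.8% rose with array weights and 42.0% with the letter block. Members that fell numbered 1 and 3 in these last fits, and 0 in every other fit run. Tk1 joined the 4 in the fit with a variance trend and in the mean of all probes, and replaced Pole when a good flag was asked on all 6 arrays. Of all genes tested in these fits, 7.37%, 6.78% and 6.72% rose. The methods' t-test chose 3 members by ratio and unadjusted p (Fen1, Pole and Tk1) and 0 after Benjamini-Hochberg adjustment. Of all tested genes, 2.83% and 0.00841% were chosen as higher. Leaving out each array in turn gave 0 to 7 members that rose, 4 to 1784 genes called and a member median of 0.16 to 0.46. The member median, 0.37, was 0.14 after normexp, 0.24 with no filter and 0.21 with array weights. Genes called over the whole table, 907 of 11893, numbered 430, 485 and 492 after normexp, quantile and loess, 178 and 130 with the low and high floor, 6 with no filter, 5104 with array weights, 7942 with the letter block, and 424 and 1 by the methods' t-test. The share of called genes that were higher was 78.9%, and 62.5% after quantile normalization, 67.9% after loess, 60.1% with array weights and 62.8% with the letter block. Of 588 values of the 35 members under these alternatives, 11 changed sign, all of members that missed the threshold. Rfc2, at 0.07 in the report, was -0.0027 after normexp, -0.048 after quantile normalization and -0.0014 in the mean of its probes, and Orc1 was -0.10 with array weights. With an array left out, Rfc2 was -0.041 to 0.17, Dbf4 -0.027 to 0.32, Pold1 -0.60 to 0.0076, Top2a -0.34 to 0.12, Prim2 -0.030 to 0.40 and Pole2 -0.019 to 0.13. The cause of these shifts was not tested. The genotypes share 1 replicate number, so no pairing was possible, and slide or scan date could not be tried as a block, since each slide held 1 array. Dim probes such as Gins3 and Orc2 are limited by signal over background.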
